A study of Mus musculus with 6 samples.

Results

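Txnip, the alpha-arrestins Arrdc1, Arrdc2, Arrdc3 and Arrdc4, and the paired transcription factors Mlx and Mlxip are 7 genes of the 21965 in the deposited mouse expression table. They were selected on FPKM values of the Aa-cko and Aa-flox libraries, which were in view when the genes were proposed, and were taken from the table by gene symbol. Differences of the 7 genes between the groups are therefore given as a description, without a test. FPKM is a fragment count scaled by gene length and library depth, so that levels of different genes can be set roughly beside each other. The 7 genes have from 2 (Arrdc4) to 12 (Arrdc1) annotated transcripts, and the lengths used for such genes are unknown. Orders, sums and shares across genes rest on these lengths. All 7 passed the filter of at least 1 FPKM in at least 3 libraries, which 10849 genes passed.

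The study sequenced RNA that the labels call lung tissue of mice, with 3 libraries labelled Aa-cko and 3 labelled Aa-flox. The labels give no age, sex, strain or treatment, do not say what Aa stands for, and name neither the deleted gene nor the promoter or cell type that drives the deletion. By common usage cko stands for a conditional knockout and flox for its control with recombinase sites. The series title names Lkb1 (gene symbol Stk11), alpha tocopherol, and ferroptosis in group 2 innate lymphoid cells. It is not stated whether the 3 libraries of a group are separate animals, and if they are not, spread and p-values are technical.

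Alpha-arrestins are adaptor proteins. They bind receptors and transporters at the plasma membrane with an arrestin fold and recruit ubiquitin ligases of the NEDD4 family, so that their cargo is internalised and degraded. Txnip, the best known of them, removes the glucose carriers Slc2a1 and Slc2a4 from the cell surface, and it alone of the family also binds and inhibits thioredoxin. Its gene and Arrdc4 are classical targets of MondoA, the protein of Mlxip, which pairs with Mlx and enters the nucleus when glucose 6-phosphate accumulates. AMPK, the kinase that LKB1 activates, phosphorylates Txnip and marks it for degradation, and in lymphocytes and other cells Txnip messenger RNA is known to be high at rest and low during growth.

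The upstream sequences of Txnip, Arrdc3, Arrdc4 and Mlx are shown because Txnip and Arrdc3 had the largest differences of the 7 genes, Arrdc4 is the other known MondoA target, and Mlx alone was lower in every Aa-cko library. Each is the 250 bases before the RefSeq start, from RefSeq on GRCm38.p6, 5′ to 3′ on the gene's strand. All 7 genes matched the table, and of the 3 windows it holds for Arrdc3 the one at the start of the gene's GENCODE annotation was used. Capitals mark matches on either strand to CACGTG (E-box), CACGAG (an E-box variant), the pair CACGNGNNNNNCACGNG, CCAAT (the NF-Y box) and TGTTTAC (a FOXO box). The pair holds 2 E-boxes or variants and so overlaps those motifs.

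Txnip, chr3:96557707-96557956, plus strand: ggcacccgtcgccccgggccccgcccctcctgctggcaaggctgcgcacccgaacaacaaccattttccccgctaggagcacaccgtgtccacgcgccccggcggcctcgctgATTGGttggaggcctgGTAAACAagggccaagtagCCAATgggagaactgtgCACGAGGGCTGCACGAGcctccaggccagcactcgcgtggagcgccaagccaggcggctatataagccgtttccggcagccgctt
Arrdc3, chr13:80883134-80883383, plus strand: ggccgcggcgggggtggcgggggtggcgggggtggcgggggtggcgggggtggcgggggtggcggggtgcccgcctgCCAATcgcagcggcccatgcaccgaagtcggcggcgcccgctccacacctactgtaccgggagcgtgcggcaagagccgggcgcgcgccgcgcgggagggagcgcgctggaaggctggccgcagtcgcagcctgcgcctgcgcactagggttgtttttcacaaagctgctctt
Arrdc4, chr7:68749239-68749488, minus strand: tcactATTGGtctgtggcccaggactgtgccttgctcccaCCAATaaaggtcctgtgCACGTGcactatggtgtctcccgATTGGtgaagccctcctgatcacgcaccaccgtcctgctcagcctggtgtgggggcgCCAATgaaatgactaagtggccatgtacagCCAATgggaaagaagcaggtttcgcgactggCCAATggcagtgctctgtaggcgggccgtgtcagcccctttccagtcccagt
Mlx, chr11:101087040-101087289, plus strand: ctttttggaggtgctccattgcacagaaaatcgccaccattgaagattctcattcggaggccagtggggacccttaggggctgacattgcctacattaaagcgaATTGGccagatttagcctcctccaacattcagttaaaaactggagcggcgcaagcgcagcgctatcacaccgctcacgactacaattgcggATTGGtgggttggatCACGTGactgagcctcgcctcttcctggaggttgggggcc

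The Txnip window held the pair as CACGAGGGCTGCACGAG, from 85 to 69 bases before the start. A pair of E-box-like motifs at this spacing is the form of a carbohydrate response element, which the Txnip promoter is known to carry. The pair occurred in 15 of the 32851 upstream windows of the same length in the RefSeq table (0.0457%). It was in none of the windows used for the other 6 genes. Because the element was known in Txnip before the search, its match there is a description and not a test. The Txnip window also held 2 NF-Y boxes and 1 FOXO box. Arrdc4 had 1 E-box and 6 NF-Y boxes, and Mlx had 1 E-box and 2 NF-Y boxes. Arrdc3 had a single NF-Y box in a window of 76.0% G and C. Of the windows not printed, that of Arrdc1 held 2 E-box variants, that of Arrdc2 held 1 variant and 3 NF-Y boxes, and that of Mlxip held 2 NF-Y boxes. Over all windows, 6.02% held an E-box, 5.37% the variant, 33.8% an NF-Y box and 3.17% a FOXO box. These are matches of letters within a short window and do not show binding.

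**Figure D1:**
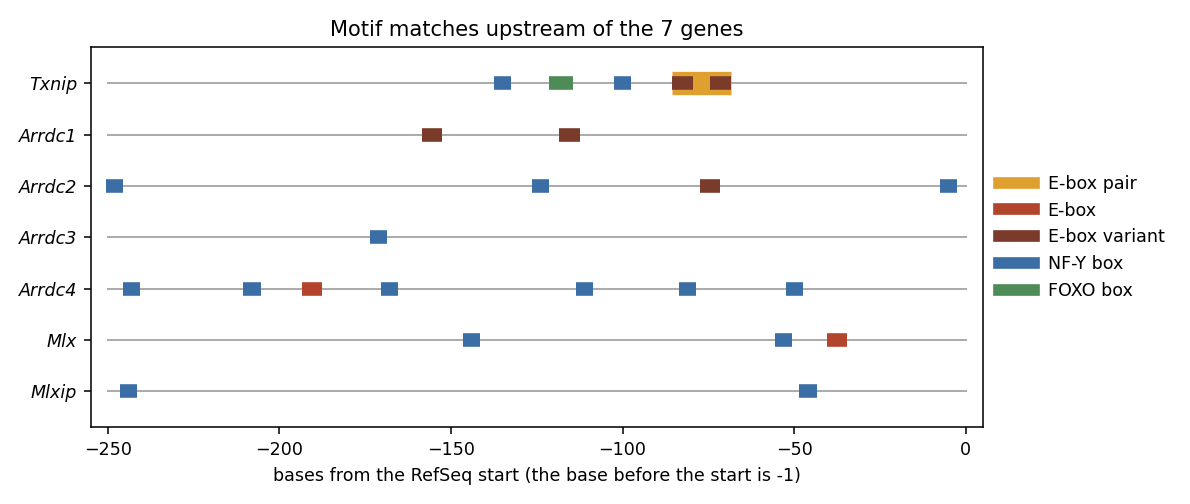
Motif matches in the 250 bases before the RefSeq start of each of the 7 genes, with distance from the start on the horizontal axis and one line per gene. The wide E-box pair stands in the Txnip line only, from 85 to 69 bases before the start, while Arrdc4 carries 6 NF-Y boxes.

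Txnip was read at 64.1, 48.0 and 75.1 FPKM in the 3 Aa-cko libraries, against 21.01, 17.0 and 22.5 FPKM in the Aa-flox libraries. Every Aa-cko library was above every Aa-flox library, and the ranges were far apart. The means were 62.4 ± 13.6 FPKM in Aa-cko and 20.2 ± 2.85 FPKM in Aa-flox (SD, n = 3 each), a ratio of 3.09. On the log2(FPKM + 1) scale the difference of Aa-cko minus Aa-flox was 1.57 ± 0.16 (SE), and 25 of the tested genes had a larger one. Txnip (ENSMUSG00000038393) is a protein-coding gene on chromosome 3 of mm10, at 96557957 to 96561883 on the plus strand.

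Arrdc3, an alpha-arrestin known to act on cell surface receptors and on an integrin, had the largest ratio of the 7 genes. It was read at 28.1, 21.3 and 40.5 FPKM in Aa-cko, against 5.28, 7.21 and 6.19 FPKM in Aa-flox. The Aa-cko libraries were all higher and also lay farther apart, with the third well above the second. The means were 29.9 ± 9.72 FPKM in Aa-cko and 6.23 ± 0.968 FPKM in Aa-flox (SD, n = 3 each), a ratio of 4.81. The log2 difference was 2.06 ± 0.21 (SE), with 9 tested genes above it. Arrdc3 (ENSMUSG00000074794) lies on chromosome 13 at 80883384 to 80896042 on the plus strand.

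Arrdc4, the closest relative of Txnip in its control by MondoA and also known to lower glucose uptake, differed less but with little spread. It was read at 25.1, 26.7 and 28.005 FPKM in Aa-cko, against 17.0, 18.2 and 19.5 FPKM in Aa-flox. The groups did not overlap, and both had the smallest coefficient of variation among the 7 genes, 5.51% in Aa-cko and 6.70% in Aa-flox. The means of 26.6 ± 1.47 FPKM in Aa-cko and 18.2 ± 1.22 FPKM in Aa-flox (SD, n = 3 each) gave a ratio of 1.46. The log2 difference was 0.52 ± 0.10 (SE). Arrdc4 (ENSMUSG00000042659) lies on chromosome 7 at 68736995 to 68749241 on the minus strand.

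Arrdc1, which drives the budding of vesicles from the plasma membrane, was read at 29.4, 29.5 and 26.5 FPKM in Aa-cko, against 24.9, 22.4 and 16.0 FPKM in Aa-flox. The groups did not overlap, with 26.5 FPKM as the lowest Aa-cko value and 24.9 FPKM as the highest Aa-flox value. The means were 28.5 ± 1.70 FPKM in Aa-cko and 21.1 ± 4.59 FPKM in Aa-flox (SD, n = 3 each). The log2 difference of 0.44 ± 0.15 (SE) came to 0.26 without Aa-flox replicate 3, the lowest library. Arrdc1 (ENSMUSG00000026972) lies on chromosome 2 at 24925352 to 24935252 on the minus strand.

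Arrdc2, the least studied of the family, had the lowest level of the 7 genes. It was read at 3.21, 3.77 and 3.21 FPKM in Aa-cko, against 2.74, 1.71 and 2.88 FPKM in Aa-flox. The groups did not overlap, but the gap between them was smaller than the spread within Aa-flox. The means were 3.39 ± 0.326 FPKM in Aa-cko and 2.45 ± 0.641 FPKM in Aa-flox (SD, n = 3 each). The log2 difference of 0.37 ± 0.16 (SE) came to 0.20 without Aa-flox replicate 2. These values rested on roughly 93 to 205 fragments per library if all annotated exons were counted, against at least 345 for each of the other 6 genes. Arrdc2 (ENSMUSG00000002910) lies on chromosome 8 at 70835129 to 70839720 on the minus strand.

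Mlx, the partner that MondoA and ChREBP both need to bind DNA, went the other way. It was read at 12.1, 15.6 and 13.5 FPKM in Aa-cko, against 20.5, 23.4 and 20.2 FPKM in Aa-flox. All Aa-cko libraries were below all Aa-flox libraries. The means were 13.7 ± 1.74 FPKM in Aa-cko and 21.4 ± 1.72 FPKM in Aa-flox (SD, n = 3 each), a ratio of 0.642 and a log2 difference of -0.61 ± 0.12 (SE). Mlx (ENSMUSG00000017801) lies on chromosome 11 at 101087277 to 101092207 on the plus strand.

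Mlxip, the gene of MondoA itself, overlapped between the groups. It was read at 13.7, 10.1 and 15.3 FPKM in Aa-cko, against 11.98, 10.3 and 12.7 FPKM in Aa-flox. The lowest of the 6 values was in an Aa-cko library and so was the highest. The means were 13.0 ± 2.67 FPKM in Aa-cko and 11.7 ± 1.22 FPKM in Aa-flox (SD, n = 3 each). The log2 difference of 0.13 ± 0.16 (SE) ranged from 0.01 without Aa-cko replicate 3 to 0.29 without Aa-cko replicate 2. The ratio of Mlx to Mlxip was 0.884, 1.55 and 0.886 in Aa-cko, against 1.71, 2.26 and 1.59 in Aa-flox, so that the Aa-cko ratios were all lower. Mlxip (ENSMUSG00000038342) lies on chromosome 5 at 123394798 to 123457932 on the plus strand.

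**Figure D2:**
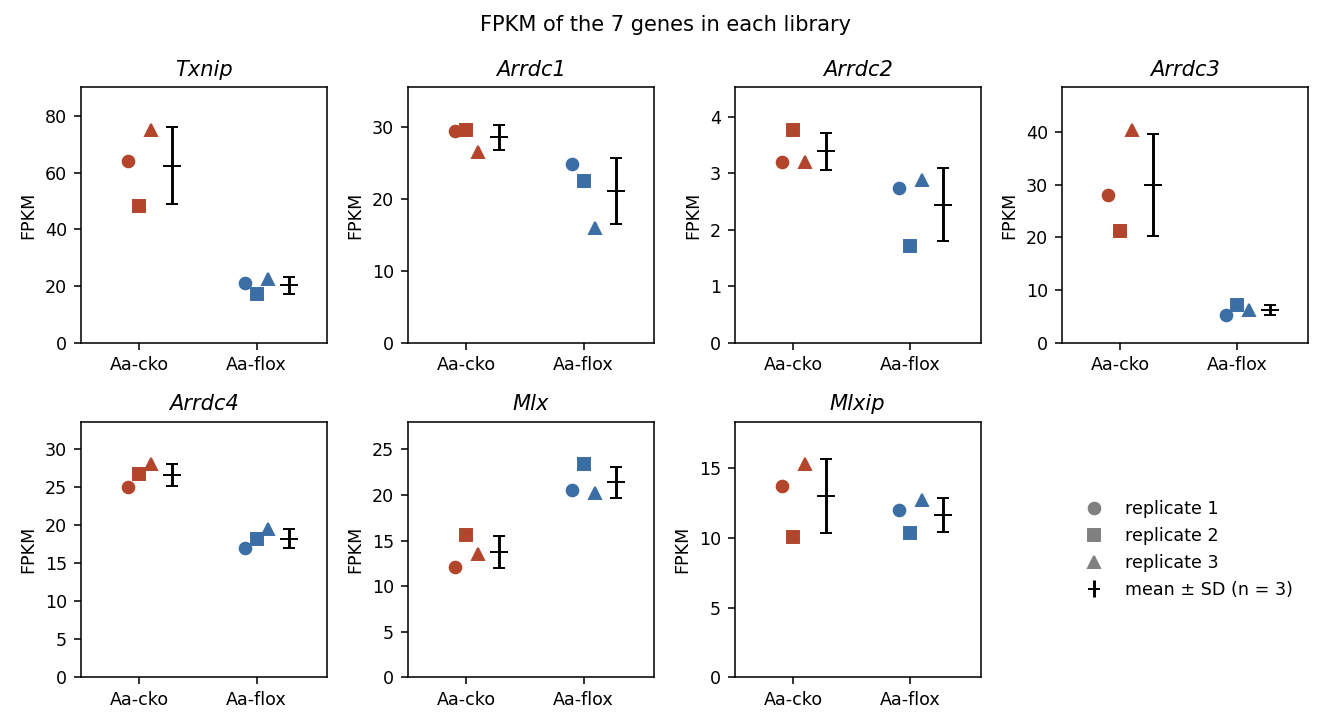
FPKM of the 7 genes in each Aa-cko and Aa-flox library, with one symbol per replicate number and the mean ± SD (n = 3) beside each group. The 5 alpha-arrestins shown were higher in every Aa-cko library, Mlx was lower in every Aa-cko library, and Mlxip overlapped. Over all tested genes 23.8% were higher and 29.6% lower in Aa-cko without overlap, and the 7 genes were chosen with these values known.

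Of the 7 genes, 5 were higher in every Aa-cko library than in any Aa-flox library, 1 was lower in every one and 1 overlapped. Over all tested genes the groups did not overlap for 53.3%, of which 23.8% of tested genes were higher and 29.6% lower in Aa-cko. Because the genes were chosen with these values known, nothing is read from the count. The median log2 difference was 0.44 over the 7 genes and -0.05 over all tested genes. With the test applied to all genes, limma at an adjusted p of 0.05, 42.4% of tested genes passed, 19.2% higher and 23.2% lower in Aa-cko. These were 2087 higher and 2515 lower genes, against 2485 higher and 1987 lower with libraries scaled by their upper quartile, and 1583 higher and 2812 lower with libraries scaled to the same FPKM sum.

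**Figure D3:**
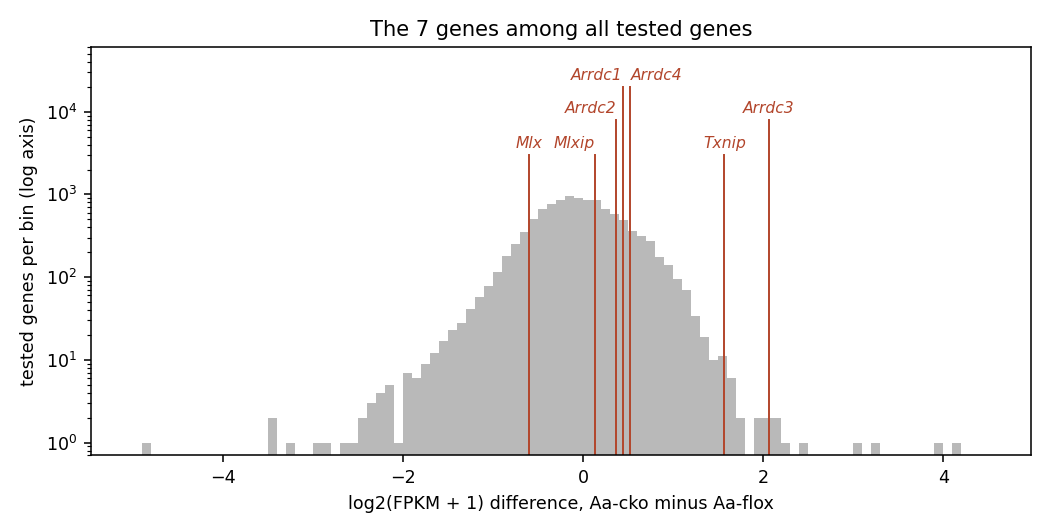
Histogram of the log2(FPKM + 1) difference of Aa-cko minus Aa-flox over the 10849 tested genes, on a log count axis, with a line at each of the 7 genes. Txnip (1.57) and Arrdc3 (2.06) stand in the upper tail, the other 5 genes lie between -0.61 and 0.52.

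The order of the levels differed between the groups. In Aa-cko, Txnip was highest in each library and did not overlap with the next gene. Arrdc3, Arrdc1 and Arrdc4 followed with overlapping ranges, then Mlx and Mlxip, which also overlapped, and Arrdc2 last. In Aa-flox, Mlx, Arrdc1, Txnip and Arrdc4 led, and each overlapped with its neighbour. Mlxip, Arrdc3 and Arrdc2 followed without overlap. Arrdc3 was sixth of the 7 genes in every Aa-flox library. In Aa-cko its mean was second, but it was above Arrdc1 in replicate 3 only, and in replicate 2 it was also below Arrdc4.

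Summed over Txnip and the 4 Arrdc genes, alpha-arrestin transcripts came to 149.8, 129.4 and 173 FPKM in Aa-cko, against 70.9, 66.5 and 67.1 FPKM in Aa-flox. The Aa-flox sums were close together, and the lowest Aa-cko sum was far above them. Txnip made up 41.1 ± 3.43% of the sum in Aa-cko and 29.6 ± 4.003% in Aa-flox (SD, n = 3 each). Arrdc3 made up 19.5 ± 3.51% in Aa-cko and 9.17 ± 1.70% in Aa-flox. The share of Arrdc4 was 17.9 ± 2.45% in Aa-cko and 26.8 ± 2.56% in Aa-flox, and that of Arrdc1 was 19.3 ± 3.77% in Aa-cko and 30.8 ± 6.12% in Aa-flox, although the FPKM of both genes was higher in Aa-cko. Txnip was read at 2.55, 1.80 and 2.68 times the FPKM of Arrdc4 in Aa-cko, against 1.23, 0.937 and 1.16 times in Aa-flox.

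**Figure D4:**
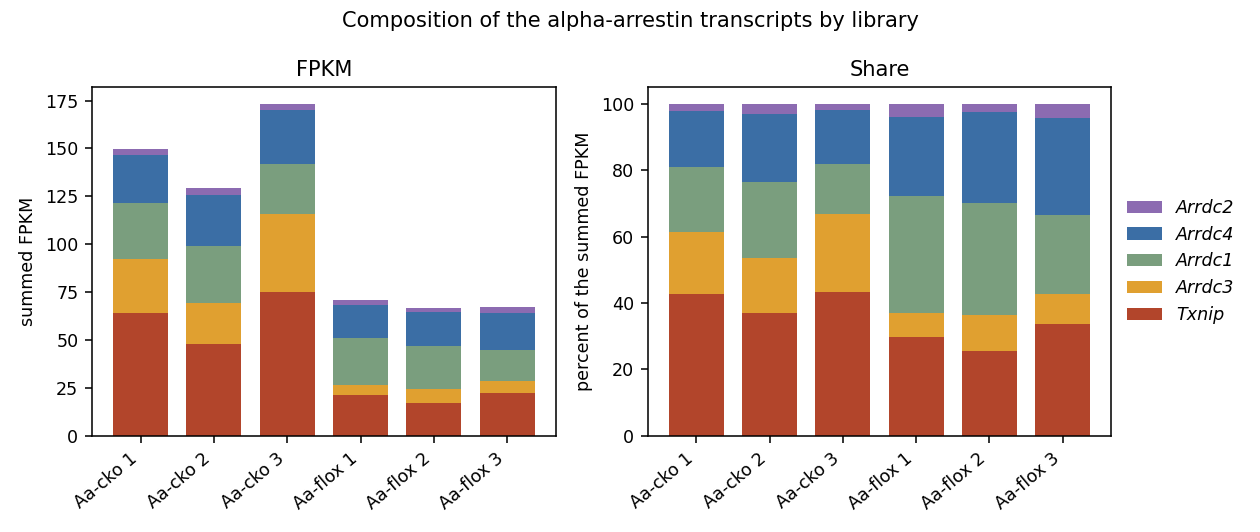
Stacked FPKM of the 5 alpha-arrestins in each library (left) and the same as percent of their sum (right), Aa-cko libraries first. Txnip and Arrdc3 together fill the larger part of each Aa-cko bar, and Arrdc1 and Arrdc4 the larger part of each Aa-flox bar.

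Within the groups, the genes did not all vary together. In Aa-cko, replicate 3 had the highest Txnip, Arrdc3, Arrdc4 and Mlxip, and replicate 2 the lowest Txnip, Arrdc3 and Mlxip. In log2 units Arrdc3 lay 0.47 above its Aa-cko mean in replicate 3 and 0.43 below it in replicate 2 (-0.43), and Txnip lay 0.29 above and 0.35 below (-0.35). Mlx was highest in replicate 2 of Aa-cko, where Txnip was lowest, and likewise in replicate 2 of Aa-flox. In Aa-flox, Txnip and Mlxip were again highest in replicate 3 and lowest in replicate 2, while Arrdc3 was highest in replicate 2.

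The genes with the most similar pattern were ranked by the root mean square difference from Txnip or Arrdc3, in log2(FPKM + 1) centred on each gene's own mean, over the 6 libraries. For Txnip the nearest of 10476 protein-coding genes was Tsc22d3, the glucocorticoid-induced leucine zipper, at 0.06. Tsc22d3 was read at 86.4, 67.8 and 101.2 FPKM in Aa-cko, against 29.0, 26.2 and 31.5 FPKM in Aa-flox, with the highest and lowest library of each group the same as for Txnip. Next came, among others, Cldn1, a tight junction gene (0.17), Cnr2, a cannabinoid receptor of leukocytes (0.19), and Slc43a2, an amino acid transporter (0.20). Near Arrdc3 were, among others, Slc40a1, the iron exporter (0.22), Rhob, a small GTPase (0.27), Klf2, a transcription factor of quiescent lymphocytes (0.29), and Tsc22d3 (0.33). These distances describe the same 6 libraries that gave the group differences.

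Beside these differences the libraries also differed in markers of cell types. Over all tested genes 19.2% were higher in Aa-cko and 23.2% lower by the limma test. All 7 macrophage and monocyte markers were higher in Aa-cko by the limma test, and their summed level was 2037 to 2591 FPKM in Aa-cko and 695 to 861 FPKM in Aa-flox. Of 7 T cell markers 5 were lower, with sums of 521 to 579 FPKM in Aa-cko and 1082 to 1261 FPKM in Aa-flox. Cd5 (means of 56.6 FPKM in Aa-cko, 294 FPKM in Aa-flox) and Trac (169 FPKM in Aa-cko, 421 FPKM in Aa-flox) differed most in FPKM. Cd3d (60.5 FPKM in Aa-cko, 72.9 FPKM in Aa-flox) and Cd3g (171 FPKM in Aa-cko, 183 FPKM in Aa-flox) did not pass. All 6 B cell markers were higher (sums of 834 to 888 FPKM in Aa-cko, 568 to 628 FPKM in Aa-flox), as were 5 of 6 neutrophil, 3 of 6 dendritic cell and 4 of 4 tested erythroid markers. Of 6 markers of group 2 innate lymphoid cells 3 were higher and 2 lower (sums of 102.1 to 119 FPKM in Aa-cko, 139 to 142 FPKM in Aa-flox). Of 5 tested alveolar epithelial markers 1 was higher and 1 lower (20% each), near the shares over all tested genes. Of 3 endothelial markers 1 was higher (33.3%), and none of 4 fibroblast markers passed, also not at an unadjusted p of 0.05. Sftpc, a dominant transcript of alveolar epithelium, stayed between 2.23 and 4.59 FPKM, low for the labelled tissue. No marker was at 0 in all libraries. The part of cell composition in the values of the 7 genes was not tested, and in such bulk RNA more cells of a type and more RNA per cell cannot be told apart.

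Depth, read from the spacing of low FPKM values, was 14.3 M to 16.8 M fragments in Aa-cko and 16.2 M to 17.4 M in Aa-flox. Mitochondrial genes held 7.18 to 8.14% of the FPKM sum in Aa-cko and 8.24 to 9.76% in Aa-flox. Stk11 itself, the gene named in the title, did not differ beyond the spread between libraries. It was read at 62.7, 61.7 and 53.7 FPKM in Aa-cko, against 64.1, 55.8 and 51.8 FPKM in Aa-flox (log2 fold change 0.05, 95% interval -0.20 to 0.30, limma adjusted p = 0.721). FPKM over the whole gene does not show the loss of single exons or loss in a minority of cells, so the direction of every comparison rests on the labels.

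The genes around the alpha-arrestins were followed in 10 lists, chosen with earlier results of these data known. Their shares are therefore a description. The lists held 146 genes, of which 115 passed the filter on low values. By limma 24 of these were higher in Aa-cko (20.9%) and 27 lower (23.5%), close to the 19.2% and 23.2% of all tested genes. The share that was higher ran from 0% in the NEDD4 and LKB1 lists to 46.7% in the FOXO1 target list, and the share that was lower from 0% in the thioredoxin list to 43.8% in the NEDD4 list. Glucose carriers and hexokinases had 44.4% higher and 33.3% lower, and ChREBP and MondoA targets 37.5% higher and 25% lower, on 9 and 8 tested genes.

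Among the transcription factors that share partners or binding sites with Mlx and Mlxip, Myc had the largest difference. Myc, the growth factor-induced partner of Max, fell to 38.8 ± 3.12 FPKM in Aa-cko, against 199 ± 33.8 FPKM in Aa-flox (SD, n = 3 each; log2 -2.32 ± 0.13, limma adjusted p = 5.71e-06). Mxd1, a Max partner that opposes Myc, rose to 171 ± 16.1 FPKM in Aa-cko, against 95.9 ± 2.68 FPKM in Aa-flox (log2 0.83 ± 0.10, limma adjusted p = 0.000271). Of 10 tested genes 1 rose (10%), 3 fell (Myc, Max and Mxd3, 30%) and 6 did not pass, with a median of 0.04. Over all tested genes 19.2% were higher and 23.2% lower. Mlxipl, the gene of the MondoA paralog ChREBP, did not reach the filter, at 0.153, 0.317 and 0.057 FPKM in Aa-cko, against 0.039, 0 and 0 FPKM in Aa-flox. The call of Max (log2 -0.59, limma adjusted p = 0.0197) ended without Aa-cko replicate 1 (limma adjusted p = 0.0868), Aa-flox replicate 2 (0.0629) or Aa-flox replicate 3 (0.0632), and without the filter (0.0603). The list had 1 lower gene without Aa-flox replicate 3 or with no filter, and 2 higher genes without Aa-cko replicate 2 or with no filter.

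Established target genes of ChREBP and MondoA other than Txnip and Arrdc4 moved in both directions. Rgs16, a regulator of G protein signalling, fell to 19.5 ± 3.15 FPKM in Aa-cko, against 51.2 ± 3.54 FPKM in Aa-flox (SD, n = 3 each; log2 -1.36 ± 0.13, limma adjusted p = 8.14e-05). Acly, ATP citrate lyase, fell by 0.49 ± 0.09 on the log2 scale. Elovl6, a fatty acid elongase, rose to 2.39 ± 0.293 FPKM in Aa-cko, against 1.15 ± 0.566 FPKM in Aa-flox (limma adjusted p = 0.0145). Of 8 tested genes 3 rose (Elovl6, Khk and Tkt, 37.5%), 2 fell (25%) and 3 did not pass, with a median of -0.21. The shares over all tested genes were 19.2% higher and 23.2% lower. The count of genes that rose was 1 without Aa-cko replicate 1, Aa-cko replicate 2 or Aa-flox replicate 3, and 0 without Aa-flox replicate 2, where Elovl6 had a limma adjusted p of 0.0517 (0.0566 without Aa-flox replicate 1). It was also 1 with libraries scaled to the same FPKM sum or with no filter on low values.

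In the thioredoxin system, which Txnip inhibits, 23.8% of the tested genes were higher in Aa-cko, close to the 19.2% of all tested genes. Srxn1, which repairs oxidised peroxiredoxins, rose to 138 ± 4.81 FPKM in Aa-cko, against 79.2 ± 4.42 FPKM in Aa-flox (SD, n = 3 each; log2 0.80 ± 0.09, limma adjusted p = 0.000211). Txn1, cytosolic thioredoxin and the direct partner of Txnip, was read at 329, 347 and 287 FPKM in Aa-cko, against 258, 224 and 206 FPKM in Aa-flox. The groups of Txn1 did not overlap, and it rose by 0.48 ± 0.12 on the log2 scale (limma adjusted p = 0.0101). Prdx5, a peroxiredoxin, rose by 0.47 ± 0.13. Of 21 tested genes 5 rose (also Glrx and Glrx2, glutaredoxins) and 16 did not pass, with a median of 0.18. None fell by limma at an adjusted or an unadjusted p of 0.05, while 23.2% of all tested genes were lower by the adjusted test. This list too was chosen with earlier results known, so nothing is read from its shares. Among the other known partners of the Txnip protein, Nlrp3, the inflammasome sensor, had 236 ± 39.9 FPKM in Aa-cko and 205 ± 8.81 FPKM in Aa-flox, and Ddit4 had 68.6 ± 7.66 FPKM in Aa-cko and 66.5 ± 5.43 FPKM in Aa-flox; neither passed. Without Aa-cko replicate 1 the count was 3 and without Aa-flox replicate 3 it was 2, with limma adjusted p of 0.0539 and 0.056 for Prdx5 in these fits.

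Glucose carriers, some of which are cargo of Txnip and Arrdc4 as proteins, divided by gene in their RNA levels. Slc2a1, the widespread carrier GLUT1, was read at 56.5, 60.4 and 51.3 FPKM in Aa-cko, against 137.6, 129 and 106.3 FPKM in Aa-flox, and fell by 1.13 ± 0.12 on the log2 scale (limma adjusted p = 0.000129). Slc2a3, the high-affinity carrier GLUT3, was read at 15.9, 14.6 and 20.0 FPKM in Aa-cko, against 40.8, 38.8 and 43.1 FPKM in Aa-flox, and fell by 1.24 ± 0.13 (limma adjusted p = 0.00011). No Aa-cko library reached any Aa-flox library for either gene. Slc2a6, a lysosomal member of the family, rose to 47.3 ± 4.38 FPKM in Aa-cko, against 24.2 ± 3.94 FPKM in Aa-flox (SD, n = 3 each; log2 0.95 ± 0.13). Of 9 tested genes 4 rose (also Slc2a8, Slc2a9 and the leukocyte hexokinase Hk3), 3 fell (also Hk1) and 2 did not pass. The list median was -0.01. These were 44.4% higher and 33.3% lower, against 19.2% and 23.2% of all tested genes. Slc2a4, the insulin-regulated carrier and the other known cargo of Txnip, was at or below 0.145 FPKM in every library.

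NEDD4-family ligases and the sorting proteins with which alpha-arrestins work were lower or did not pass. Ndfip1, another adaptor that activates these ligases, fell to 132 ± 7.49 FPKM in Aa-cko, against 196 ± 23.6 FPKM in Aa-flox (SD, n = 3 each; log2 -0.56 ± 0.11, limma adjusted p = 0.00344). Nedd4 itself fell to 8.13 ± 2.26 FPKM in Aa-cko, against 14.6 ± 2.14 FPKM in Aa-flox (log2 -0.79 ± 0.18), and Stam, an endosomal sorting protein, fell by 0.60 ± 0.14. Itch, the ligase that targets Txnip itself, fell to 14.4 ± 2.59 FPKM in Aa-cko, against 20.96 ± 3.39 FPKM in Aa-flox (log2 -0.52 ± 0.16, limma adjusted p = 0.0241). Of 16 tested genes 7 fell (43.8%, against 23.2% of all tested genes) and 9 did not pass, with a median of -0.22. None rose by limma at an adjusted or an unadjusted p of 0.05. Because the list was chosen with earlier results known, nothing is read from its share. The count that fell was 4 without Aa-cko replicate 1 and 3 without Aa-flox replicate 2 or Aa-flox replicate 3.

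The other tested genes with an arrestin fold had log2 fold changes from -0.40 (Vps26b) to 0.43 (Vps26a). Arrb2, the beta-arrestin of leukocytes, had 61.1 ± 8.47 FPKM in Aa-cko and 51.4 ± 8.49 FPKM in Aa-flox (SD, n = 3 each) and did not pass (log2 0.25, limma adjusted p = 0.194). Of the retromer subunits, Vps26a rose to 63.1 ± 2.47 FPKM in Aa-cko, against 46.6 ± 1.27 FPKM in Aa-flox, and Vps26b fell to 13.0 ± 0.875 FPKM in Aa-cko, against 17.4 ± 0.855 FPKM in Aa-flox. Of 6 tested genes 1 rose, 1 fell (16.7% each, against 19.2% and 23.2% of all tested genes) and 4 did not pass. The list median was 0.13. The call of Vps26b (log2 -0.40, limma adjusted p = 0.0152) ended without Aa-cko replicate 1 (0.062), Aa-flox replicate 2 (0.0582) or Aa-flox replicate 3 (0.0535). Arrdc5, the remaining alpha-arrestin, was listed at 0 in all 6 libraries.

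Among receptors and carriers on which alpha-arrestins act, Notch1 fell to 13.6 ± 2.80 FPKM in Aa-cko, against 21.8 ± 1.06 FPKM in Aa-flox (SD, n = 3 each; log2 -0.66 ± 0.14, limma adjusted p = 0.00533). Slc11a2, the iron carrier DMT1 that Arrdc1 and Arrdc4 are known to regulate, rose to 28.5 ± 3.597 FPKM in Aa-cko, against 19.7 ± 2.48 FPKM in Aa-flox (log2 0.51 ± 0.13, limma adjusted p = 0.0104). Insr, the insulin receptor, had 1.65 ± 0.625 FPKM in Aa-cko and 2.40 ± 0.635 FPKM in Aa-flox; it did not pass (limma adjusted p = 0.156) but did without Aa-cko replicate 3 (0.0367), which took the count that fell to 2. Of 4 tested genes 1 rose, 1 fell (25% each, against 19.2% and 23.2% of all tested genes) and 2 did not pass. The list median was -0.03.

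FOXO factors, which PI3K and AKT hold in the cytoplasm, are known activators of Txnip. Foxo1 was read at 16.1, 12.8 and 19.9 FPKM in Aa-cko, against 61.4, 51.2 and 64.2 FPKM in Aa-flox, and fell by 1.81 ± 0.16 on the log2 scale (limma adjusted p = 5.41e-05). Its order of libraries within each group was that of Txnip, an order that Mlxip, Tsc22d3 and Hk2 also had. How common this order is over all genes was not tested, and neither was a link of Foxo1 to Txnip. Irs2, an insulin receptor substrate and FOXO target, rose to 29.3 ± 7.97 FPKM in Aa-cko, against 12.1 ± 1.16 FPKM in Aa-flox (SD, n = 3 each; log2 1.18 ± 0.18), and Sgk1, a kinase related to AKT, rose by 0.80 ± 0.10. Of 16 tested genes of this pathway 2 rose (12.5%), 4 fell (25%) and 10 did not pass, with a median of -0.10. Over all tested genes 19.2% were higher and 23.2% lower. Without Aa-cko replicate 2 the count of pathway genes that rose was 4. Of 15 FOXO1 target genes of lymphocytes 7 rose (46.7%, against 19.2% of all tested genes), 3 fell (20%) and 5 did not pass. The median of these 15 genes was 0.39. This list was chosen with earlier results of these data known, so nothing is read from its share. S1pr1, which guides lymphocyte egress, Klf2 and the homing receptor Ccr7 led the list with log2 fold changes of 3.21 ± 0.13, 2.29 ± 0.10 and 0.996 ± 0.096 (limma adjusted p = 8.74e-07, 8.88e-07 and 8.23e-05).

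Of the LKB1 complex and AMPK, which acts on the Txnip protein, 3 of 10 tested genes fell (30%) and 7 did not pass. The list median was -0.08. None of the 10 rose by limma at an adjusted p of 0.05, and 1 did at an unadjusted p of 0.05. By the adjusted test 19.2% of all tested genes were higher and 23.2% lower. Prkab1, a regulatory AMPK subunit, fell to 24.8 ± 0.316 FPKM in Aa-cko, against 34.5 ± 0.921 FPKM in Aa-flox (SD, n = 3 each; log2 -0.46 ± 0.09, limma adjusted p = 0.00322), and Cab39, the scaffold of the LKB1 complex, fell by 0.49 ± 0.11. Prkab2 fell to 2.98 ± 0.452 FPKM in Aa-cko, against 4.52 ± 0.537 FPKM in Aa-flox (limma adjusted p = 0.0238), a call that ended without Aa-cko replicate 2 (0.0667), Aa-flox replicate 1 (0.0759) or Aa-flox replicate 3 (0.0746). The catalytic subunit gene Prkaa1 had 8.43 ± 1.76 FPKM in Aa-cko and 9.86 ± 0.933 FPKM in Aa-flox and did not pass.

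**Figure D5:**
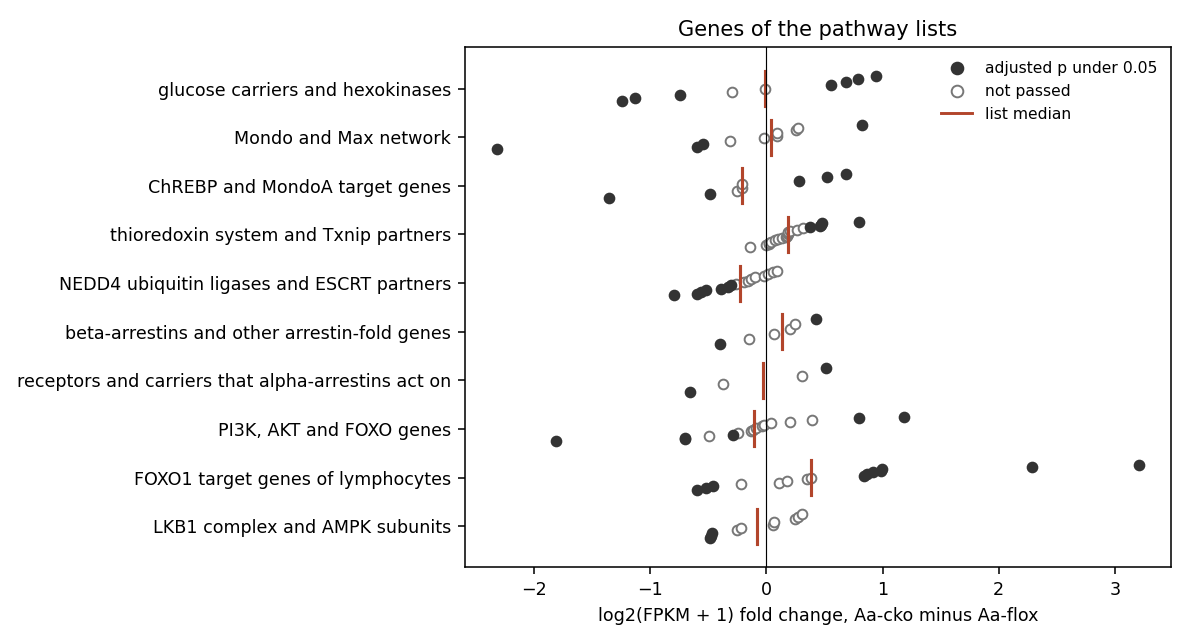
Log2(FPKM + 1) fold change of Aa-cko minus Aa-flox for each tested gene of the 10 lists, one row per list, filled where the adjusted p was under 0.05, with the list median as a vertical bar. The thioredoxin row has calls on the right only (5 of 21), the NEDD4 row on the left only (7 of 16). The other rows, apart from the LKB1 row with 3 lower calls, have calls on both sides. Over all tested genes 19.2% were higher and 23.2% lower. The lists were chosen with earlier results of these data known, so nothing is read from these counts.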

How the data were processed

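Total RNA was sequenced from 3 Aa-cko and 3 Aa-flox libraries; per the labels' protocols RNA was column-purified and libraries came from a SMARTer mRNA-Seq kit. The authors deposited 1 table of FPKM values, not counts; per the submitters' processing notes the genome build was mm10. Aligner, counter and gene models: not given in the sources used here. Positions and exon lengths came from GENCODE M21 on the same build (21806 identifiers matched). Depth was the value between 4 M and 26 M fragments at which most low values of one part of the 4305 single-transcript genes became whole; 88.5 to 92.7% of held-out values were then whole within 0.1 fragment (20.0% by chance). Over multi-transcript genes the lengths used are unknown, so no count test was run.

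Differences were fitted with limma 3.58.1 (R 4.3.3) on log2(FPKM + 1), with trend and robust moderation, with no covariate beside group, over genes reaching 1 FPKM in 3 or more libraries, and Benjamini-Hochberg adjustment over all 10849 genes. This scale understates changes of low genes. The 7 genes and all lists were chosen with earlier results of these data known. Named were the 7 genes, Stk11, the 3 genes with the smallest p in each list and the 5 nearest genes in pattern to Txnip and Arrdc3; other list genes were named after their values were seen, and some genes that the rule picks are not reported here. Tested on data simulated for Aa-cko against Aa-flox, with 10776 genes, the fit recovered 83.6%, 100% and 100% of genes changed 1.5-, 2- and 4-fold, with 11 false among 202 calls. The simulation gave all genes the same small dispersion and changed only 55, 76 and 69 genes at these folds. In the data 42.4% of tested genes passed, and Arrdc3 varied by 32.5% (coefficient of variation) within Aa-cko. These rates therefore need not hold for the libraries. Sequence windows were searched with Python 3.11.15.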

Additional observations from a re-analysis of the deposited data

How the results depend on the processing

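The differences of the 7 genes kept their direction in all 11 alternatives run for them. Leaving out each library in turn gave 1.42 to 1.74 for Txnip, 1.83 to 2.27 for Arrdc3, 0.48 to 0.57 for Arrdc4, 0.26 to 0.56 for Arrdc1, 0.20 to 0.46 for Arrdc2, -0.70 to -0.53 for Mlx and 0.01 to 0.29 for Mlxip. Arrdc4 came to 0.61 under upper quartile scaling and 0.43 with libraries scaled to the same FPKM sum, and the median over all genes moved by 0.08 and -0.08 under these scalings. At an adjusted p of 0.01 the counts were 1269 higher and 1479 lower genes (2087 and 2515 at 0.05), and 15 and 16 of the pathway genes (24 and 27). Leaving out each library gave 18 to 28 higher and 17 to 31 lower pathway genes, the lowest without Aa-flox replicate 3, and 1502 to 2109 and 1793 to 2735 over all genes. Of all calls 45.3% were higher, 55.6% under upper quartile scaling and 36.02% with libraries scaled to the same FPKM sum. Upper quartile scaling also gave 3 higher genes in the Mondo and Max list and 1 in the LKB1 list. Equal replicate numbers correlated at -0.02, 0.19 and 0.52 in their deviations over genes, and 1 of 3 libraries correlated best with its own number, so the numbers were not treated as pairs. With a replicate block, 2451 genes were higher and 3058 lower, and 30 and 31 of the pathway genes; Arrb2 then passed (limma adjusted p = 0.0278). The table holds normalized values, which limits low genes such as Arrdc2 and Mlxipl most.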
